A study of Homo sapiens with 8 samples.

Results

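The endoplasmic reticulum (ER) folding module comprises 34 listed genes for folding, quality control, membrane translocation and stress signalling in the secretory pathway. They fall into 18 chaperones and folding enzymes, 10 genes of degradation, translocation and export, and 6 sensors and transcription factors. Of the 34 genes, 33 had a probe set naming them alone, out of 19775 such genes on the array, and the brightest of these probe sets over the 8 arrays stood for each gene. SYVN1, the ubiquitin ligase that works with SEL1L, shares its only probe set with another gene and was not analysed here. All 33 genes passed the filter on dim genes, because each of them lay above the array median on all 8 arrays.

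Total RNA came from human embryonic stem cells labelled as H9, an established line, and was measured on an Affymetrix expression array. The 4 groups held 2 arrays each, with the replicate letters A and B: undifferentiated cells at 0 mM ethanol, undifferentiated cells at 20 mM, embryoid bodies at 0 mM and embryoid bodies at 20 mM. Exposure lasted 24 hours, and all groups share the line label and the mTeSR culture protocol. Embryoid bodies are aggregates in which pluripotent cells start to differentiate into several lineages at once, and their age is not given in the sources used here. The labels do not say that replicate arrays came from separate cultures, so each p-value measures only the spread between these samples, which may be technical. In a check of the arrays against the named line, 4 of 8 arrays did not match it, all in 1 of the 2 stages, so that differentiation and the source of the cells cannot be told apart in any comparison between stages. Each ethanol comparison lies within a stage.

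Proteins bound for the cell surface or secretion enter the ER through the SEC61 channel, where HSPA5 (BiP), lectin chaperones and disulfide isomerases fold them. Proteins that fail to fold are drawn back into the cytosol and degraded, while folded cargo leaves in COPII vesicles. When unfolded protein builds up, the sensors ERN1 (IRE1), EIF2AK3 (PERK) and ATF6 start the unfolded protein response: ERN1 splices XBP1 RNA, ATF6 is cleaved into a transcription factor, and EIF2AK3 slows translation. Cells that secrete large amounts of protein, such as hepatocytes and fibroblasts, carry much of this machinery without acute stress.

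ATF6 and XBP1 act through short promoter elements, which are shown here because many of the listed genes carry them. Promoters were read from RefSeq on GRCh38.p14, from 250 bases before to 50 bases after the annotated start, a window of 300 bases held for 31 of the 34 genes. The ER stress response element (ERSE), searched on both strands as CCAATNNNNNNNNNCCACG, occurred in 8 of these 31 promoters and in 25 of all 27305 (0.0916%). The element ERSE-II, searched as ATTGGNCCACG, occurred in 3 of 31 and in 19 of all promoters (0.0696%). The unfolded protein response element TGACGTGG, which may overlap ERSE-II, occurred in 1 of 31, HYOU1, against 0.927% of all promoters. The letters CCACG alone were in 22 of 31 promoters and in 42.1% of all. A match describes letters in the window and is not evidence that a factor binds there.

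The promoter stretches with ERSE are printed on the strand of the gene, with the fixed letters of the element in capitals, to show that the element occurs in both orientations and in 2 places in HSP90B1. They lie on GRCh38.p14 at chr9:125241381-125241419 (HSPA5, minus strand), chr12:103930206-103930349 (HSP90B1, plus), chr19:12938374-12938412 (CALR, plus), chr5:179698768-179698806 (CANX, plus), chr2:10812843-10812881 (PDIA6, minus), chr22:49918544-49918582 (CRELD2, plus), chr1:236282173-236282208 (ERO1B, minus) and chr22:28800593-28800631 (XBP1, minus). CANX, PDIA6 and XBP1 have more than 1 annotated start, and the stretch printed for each belongs to 1 of them.
HSPA5: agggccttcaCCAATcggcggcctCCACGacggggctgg
HSP90B1: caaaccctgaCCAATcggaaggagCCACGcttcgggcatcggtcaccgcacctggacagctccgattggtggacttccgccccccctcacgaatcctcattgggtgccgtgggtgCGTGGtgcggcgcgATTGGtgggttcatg
CALR: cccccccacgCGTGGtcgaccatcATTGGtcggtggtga
CANX: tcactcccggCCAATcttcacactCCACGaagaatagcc
PDIA6: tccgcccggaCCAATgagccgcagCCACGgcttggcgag
CRELD2: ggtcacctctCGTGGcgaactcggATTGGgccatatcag
ERO1B: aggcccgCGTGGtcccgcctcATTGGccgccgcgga
XBP1: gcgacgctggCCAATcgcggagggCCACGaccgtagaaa

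The 3 promoters with ERSE-II belong to HERPUD1 (chr16:56932015-56932045, plus strand), HYOU1 (chr11:119057264-119057400, minus) and SDF2L1 (chr22:21642104-21642134, plus), printed in the same way. HYOU1 carries the element in 2 places.
HERPUD1: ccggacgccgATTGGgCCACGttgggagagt
HYOU1: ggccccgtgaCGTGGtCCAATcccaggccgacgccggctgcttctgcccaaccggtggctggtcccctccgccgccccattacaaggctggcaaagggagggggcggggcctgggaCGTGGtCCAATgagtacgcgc
SDF2L1: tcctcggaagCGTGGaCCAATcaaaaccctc

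Signals are given as linear array signals, scaled so that each array's trimmed mean is close to 500, and the changes as log2 differences of group means with 1 standard error from limma. A change was called at a Benjamini-Hochberg adjusted p under 0.05 over 14072 tested genes. Array medians were 69.2 to 79.4 in undifferentiated cells and 85.1 to 102 in embryoid bodies, and 3'/5' signal ratios of ACTB were 1.35 to 1.58 over the 8 arrays. The number of arrays limits the precision. The deposited values are rounded, and the smallest step between group means is 0.017 in log2. Signals given as equal on both arrays of a group are therefore equal only to within rounding. The same rounding limits the standard errors and the counts of groups that do not overlap.

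At 0 mM ethanol, embryoid bodies had higher signals than undifferentiated cells for most of the module. Of the 33 genes, 25 were called higher and 3 lower, and 5 were not called; over all tested genes, 28% were called higher and 24.7% lower. The median change was 0.55 for the module against 0.02 for all genes. At 20 mM ethanol, 27 genes were called higher and 2 lower, against 29.2% and 27.1% of all genes, with medians of 0.56 and 0.02. The means at 20 mM come from the other 4 arrays, but the spread is pooled over all groups. The calls at the doses are therefore not independent. With only the groups compared, 23 genes were called higher and 3 lower at 0 mM, and 24 and 1 at 20 mM. Of all 14072 genes, 3738 were then called higher and 3308 lower at 0 mM, and 3636 and 3053 at 20 mM. With the pooled spread, 24 genes were called higher at both doses, as were 23.9% of all tested genes. ERO1A and SEC61B, 2 genes, were called lower at both, against 20.2% of all. This balance depended on the array scaling. Quantile normalisation and cyclic loess gave module medians of 0.64 and 0.65 at 0 mM, and of 0.66 and 0.71 at 20 mM. With each array centred on its median, 15 genes were called higher and 3 lower at 0 mM, and 13 and 3 at 20 mM. Of all genes, 17.8% were then called higher and 41.3% lower at 0 mM, and 16.1% and 48.5% at 20 mM. The medians under that centring were 0.27 and 0.15 for the module and -0.27 and -0.40 for all genes. Under that centring SSR1 at both doses and HSP90B1, PDIA3 and SDF2L1 at 20 mM changed sign, to between -0.017 and -0.17, without a call.

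**Figure D1:**
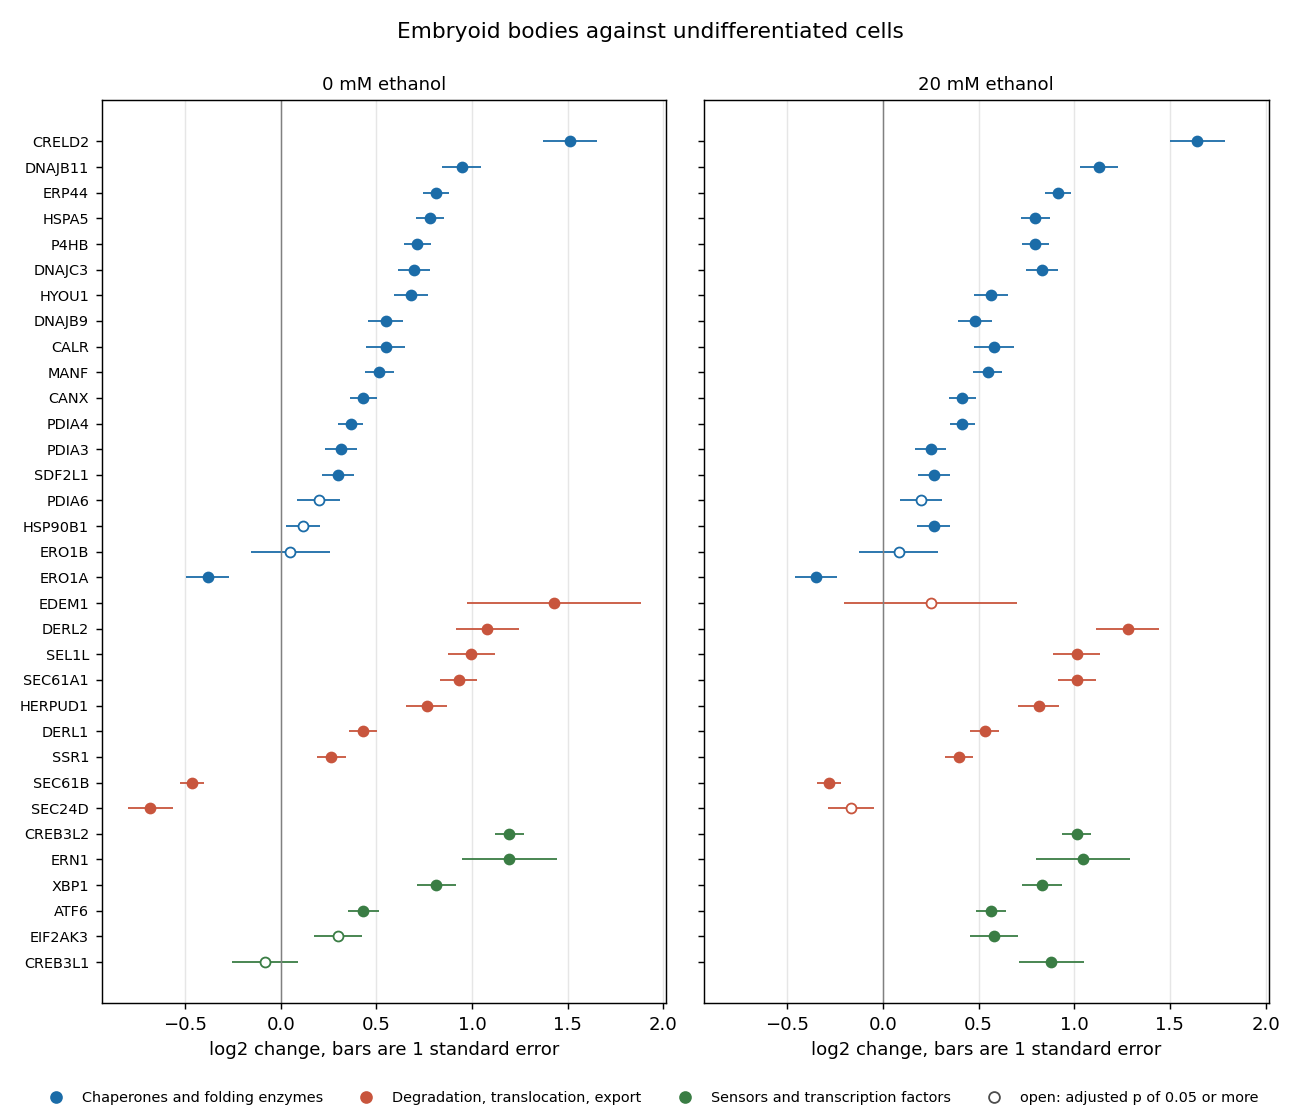
Change between embryoid bodies and undifferentiated cells for the 33 genes at 0 mM (left) and 20 mM ethanol (right), as log2 differences with bars of 1 standard error, coloured by role; filled points passed an adjusted p of 0.05 and open points did not. Most points lie to the right of 0 in both panels. ERO1A, SEC61B and SEC24D lie to the left of it in both, as does CREB3L1 at 0 mM (-0.083).

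The summed signals of the cell type markers moved with the stage. The 8 pluripotency markers with a probe set of their own, out of 10, lay above the array median on every array; their summed signal was 117258 to 121485 in undifferentiated cells and 91305 to 93769 in embryoid bodies at 0 mM. The 10 genes of liver and yolk sac endoderm summed to 876 to 1022 and 41857 to 42243, with 4 to 5 and 9 genes above the array median, and the defining hepatocyte gene ALB, at a mean of 42.2 in embryoid bodies, stayed under it. The 10 mesenchyme and matrix genes summed to 8465 to 8813 and 48092 to 49208, with 8 and 10 above the median. The 9 neural genes summed to 18174 to 18524 and 26139 to 26796, with 8 to 9 and 9 above the median. Single markers did not all follow the sums at 0 mM. By group means, DNMT3B rose (21385 to 21883) and SOX2 hardly changed (17396 to 17383), while the other pluripotency genes fell. The neural gene TUBB3, the largest part of its sum, fell (16034 to 15677) and MAPT stayed at 159, while the other neural genes rose. POU5F1, TDGF1 and NEUROD1 had no probe set naming them alone, and no marker was at 0. The part of these cell types in the stage results was not tested, and in bulk RNA fewer cells of a type and less RNA per cell cannot be told apart.

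Among the 18 chaperones and folding enzymes, 14 were higher in embryoid bodies at 0 mM, 1 was lower and 3 were not called, with a median change of 0.53. Over all tested genes, 28% were higher and 24.7% lower. The change was largest for CRELD2, an ER protein with thioredoxin-like motifs. Its signal was 1380 (A) and 1820 (B) in undifferentiated cells at 0 mM, 1380 and 1549 at 20 mM, 4571 and 4467 in embryoid bodies at 0 mM and 4677 and 4467 at 20 mM. All 4 embryoid body arrays lay above all 4 undifferentiated arrays. The change was 1.51 ± 0.14 at 0 mM, 2.85-fold (adjusted p = 0.00062), and 1.64 ± 0.14 at 20 mM, 3.13-fold (adjusted p = 0.000407).

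HSPA5, the central Hsp70 chaperone of the ER and the classic target of the unfolded protein response, had signals of 12303 and 12023 in undifferentiated cells without ethanol and 12303 on both arrays with it. In embryoid bodies it was at 21380 and 20417 without ethanol and at 22387 and 20417 with it. The stages did not overlap, and the change was 0.78 ± 0.076 at 0 mM, 1.72-fold (adjusted p = 0.000667), and 0.80 at 20 mM. P4HB, the disulfide isomerase PDI, was at 7943 and 7586, then 7586 and 7079, in the undifferentiated arrays, and at 12882 and 12589 in embryoid bodies at either dose. Its change was 0.71 ± 0.072, 1.64-fold (adjusted p = 0.000759). ERP44, which retains the oxidase ERO1A in the ER, was at 2239 and 2291, then 2138 and 2138, in the undifferentiated arrays, and at 3981 on both embryoid body arrays without ethanol and 4169 and 3890 with it. It had the smallest adjusted p of the folding genes, 0.00042, for a change of 0.81 ± 0.068, 1.76-fold.

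The co-chaperones that supply HSPA5 with substrates and drive its cycle were also higher. DNAJB11 was at 2692 to 3236 over the 4 undifferentiated arrays and at 5888 to 6607 over the 4 embryoid body arrays, a change of 0.95 ± 0.10 at 0 mM (adjusted p = 0.000941). DNAJC3 was 1.62-fold higher (adjusted p = 0.00142), DNAJB9 1.46-fold (adjusted p = 0.00406), and the exchange factor HYOU1 1.60-fold (adjusted p = 0.0017). SDF2L1, a partner of DNAJB11, changed by 0.30 ± 0.084 (adjusted p = 0.0281). Of the lectin chaperones, CALR was 1.46-fold higher (adjusted p = 0.00686) and CANX 1.35-fold (adjusted p = 0.00396); the mean of all 5 CANX probe sets, 1 of them dim, gave -0.33 (adjusted p = 0.106). The isomerases PDIA4 and PDIA3 were 1.29-fold and 1.24-fold higher (adjusted p = 0.00582 and 0.0223), and MANF, a secreted ER stress protein, 1.43-fold (adjusted p = 0.00281).

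Not every folding gene followed. HSP90B1, the Hsp90 chaperone of the ER (GRP94), was at 5248 and 5623 in undifferentiated cells and at 5888 on both embryoid body arrays at 0 mM, a change of 0.12 ± 0.087 (adjusted p = 0.305). At 20 mM its change was 0.27 (adjusted p = 0.0429), a call that was lost on leaving out any single array but undifferentiated array A at 20 mM (adjusted p = 0.0551 to 0.185). The probe sets used for HSP90B1, CALR and PDIA6 are of the _x_at kind, which can bind related transcripts, and a dimmer HSP90B1 set (mean signal 661) differed by 0.78 at 0 mM. PDIA6 differed by 0.20 at either dose (adjusted p = 0.182 and 0.177) and ERO1B by 0.05 and 0.083 (adjusted p = 0.857 and 0.755). ERO1A, the oxidase that recharges P4HB, was lower in embryoid bodies: 1905 and 1950 without ethanol and 2138 and 1820 with it, against 2692 and 2344, then 2455 and 2570, in undifferentiated cells. The groups did not overlap, and the change was -0.38 ± 0.11 at 0 mM (adjusted p = 0.0307) and -0.35 at 20 mM (adjusted p = 0.0386).

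**Figure D2:**
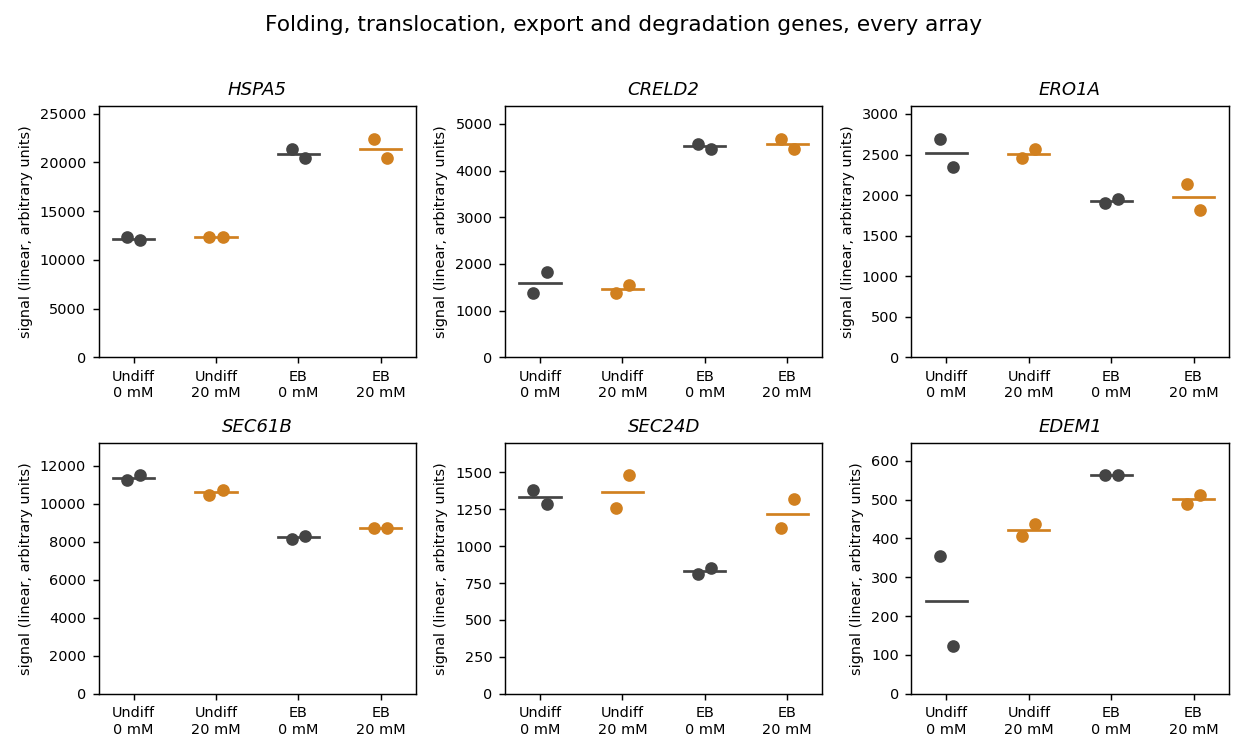
Linear signal (arbitrary units) of HSPA5, CRELD2, ERO1A, SEC61B, SEC24D and EDEM1 on every array; points are arrays, lines group means, grey 0 mM and orange 20 mM ethanol. HSPA5 and CRELD2 are higher and SEC61B and ERO1A lower in embryoid bodies at both doses, SEC24D at 20 mM lies near the undifferentiated level, and 1 EDEM1 array at 123 stands below the rest.

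Of the 9 measured genes of degradation, translocation and export, 7 were higher and 2 lower in embryoid bodies at 0 mM, with a median change of 0.76. At 20 mM, 6 were higher, 1 lower and 2 not called. The shares of all genes were 28% higher and 24.7% lower at 0 mM, and 29.2% and 27.1% at 20 mM. The degradation genes were all higher at 0 mM. SEL1L, the adaptor of the SYVN1 ubiquitin ligase, was at 1349 and 1230, then 1175 and 1479, in undifferentiated cells, against 2570 on both embryoid body arrays without ethanol and 2630 and 2692 with it. It was 1.995-fold higher at 0 mM, by 0.997 ± 0.12 (adjusted p = 0.00147). DERL2, a channel component of retrotranslocation, was at 1175 and 1288, then 955 and 1349, in the undifferentiated arrays and at 2692 and 2512, then 2754 on both arrays, in embryoid bodies. Its change was 1.08 ± 0.17, 2.11-fold (adjusted p = 0.00319). HERPUD1, a stress-induced scaffold of the degradation complex, was at 1202 and 1445, then 1259 and 1349, in undifferentiated cells, and the embryoid bodies were at 2291 and 2188, then 2344 and 2239. Its change at 0 mM was 0.76 ± 0.11 (adjusted p = 0.00231), and DERL1 was 1.35-fold higher (adjusted p = 0.00468).

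EDEM1, which extracts misfolded glycoproteins from the folding cycle, rested on a wide pair. Its undifferentiated arrays at 0 mM were at 355 and 123, those at 20 mM at 407 and 437, and the embryoid bodies at 562 on both arrays without ethanol and at 490 and 513 with it. The change of 1.43 ± 0.45 at 0 mM was called (adjusted p = 0.0412), but in only 8 of 20 alternative analyses, with values from 0.66 to 2.19. At 20 mM the difference was 0.25 (adjusted p = 0.668), and the same 0.25 was called without undifferentiated array A (adjusted p = 0.0412) or B (adjusted p = 0.0415) at 0 mM, which leaves the wide pair out of the pooled spread.

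The subunits of the translocation channel moved in opposite directions. SEC61A1, the pore, was at 1820 and 2042, then 1738 and 1995, in the undifferentiated arrays and at 3631 and 3715, then 3802 and 3715, in embryoid bodies, a change of 0.93 ± 0.098 (adjusted p = 0.000907). SEC61B, a small subunit beside the pore, was at 11220 and 11482, then 10471 and 10715, in the undifferentiated arrays and at 8128 and 8318, then 8710 on both arrays, in embryoid bodies. It was 1.38-fold lower at 0 mM (-0.47 ± 0.063, adjusted p = 0.0021), and 1.22-fold lower at 20 mM (adjusted p = 0.0114), where cyclic loess scaling left no difference (0.0059). SSR1, of the translocon-associated complex, was 1.20-fold higher at 0 mM (adjusted p = 0.0263).

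SEC24D, a cargo-binding subunit of the COPII coat, was called lower in embryoid bodies at 0 mM. Its signal was 1380 and 1288, then 1259 and 1479, in undifferentiated cells. Embryoid bodies without ethanol were at 813 and 851, and those with it at 1122 and 1318. The change between stages was -0.68 ± 0.12 at 0 mM, 1.60-fold (adjusted p = 0.00518), and -0.17 at 20 mM (adjusted p = 0.28); the difference between the doses is tested with the ethanol results.

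Of the 6 sensors and transcription factors, 4 were higher in embryoid bodies at 0 mM and 2 were not called (median 0.62). All 6 were higher at 20 mM (median 0.86). Of all genes, 28% were higher at 0 mM and 29.2% at 20 mM. CREB3L2, an ER-anchored factor known for secretory capacity in cartilage, had the smallest adjusted p of the module. It was at 1413 and 1549, then 1660 and 1738, in undifferentiated cells and at 3388 on both embryoid body arrays without ethanol and 3467 and 3388 with it. The change was 1.20 ± 0.076, 2.29-fold (adjusted p = 0.000177). A dimmer CREB3L2 probe set, with a mean signal of 129, did not share it (-0.10).

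XBP1, the factor made active by ERN1, was at 2692 and 2291, then 2630 and 2754, in the undifferentiated arrays and at 4571 and 4169, then 4898 and 4677, in embryoid bodies. It was 1.76-fold higher at 0 mM, by 0.81 ± 0.10 (adjusted p = 0.00165); spliced and unspliced RNA were not measured apart. ATF6 was at 1514 and 1413, then 1318 and 1413, against 1995 and 1950, then 2089 and 1950, a change of 0.43 ± 0.08 (adjusted p = 0.00629). ERN1, the sensor kinase and nuclease, had signals of 162 and 97.7, then 141 and 174, in the undifferentiated arrays and 269 and 309, then 331 and 316, in embryoid bodies. The change was 1.20 ± 0.25 (adjusted p = 0.00946), while the other 2 ERN1 probe sets, with mean signals of 130 and 128, differed by -0.47 and -0.37.

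EIF2AK3, the sensor kinase that phosphorylates eIF2-alpha, was at 1738 and 1413, then 1622 and 1479, in the undifferentiated arrays and at 1950 and 1905, then 2188 and 2455, in embryoid bodies. Its change was 0.30 ± 0.12 at 0 mM (adjusted p = 0.0899) and 0.58 at 20 mM (adjusted p = 0.00954). CREB3L1, an ER-anchored factor known for collagen secretion in bone, was at 191 and 257, then 151 and 138, in the undifferentiated arrays and at 204 and 214, then 295 and 240, in embryoid bodies. The stages overlapped at 0 mM (-0.083 ± 0.17, adjusted p = 0.708) and did not at 20 mM (0.88 ± 0.17, 1.84-fold, adjusted p = 0.00683).

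**Figure D3:**
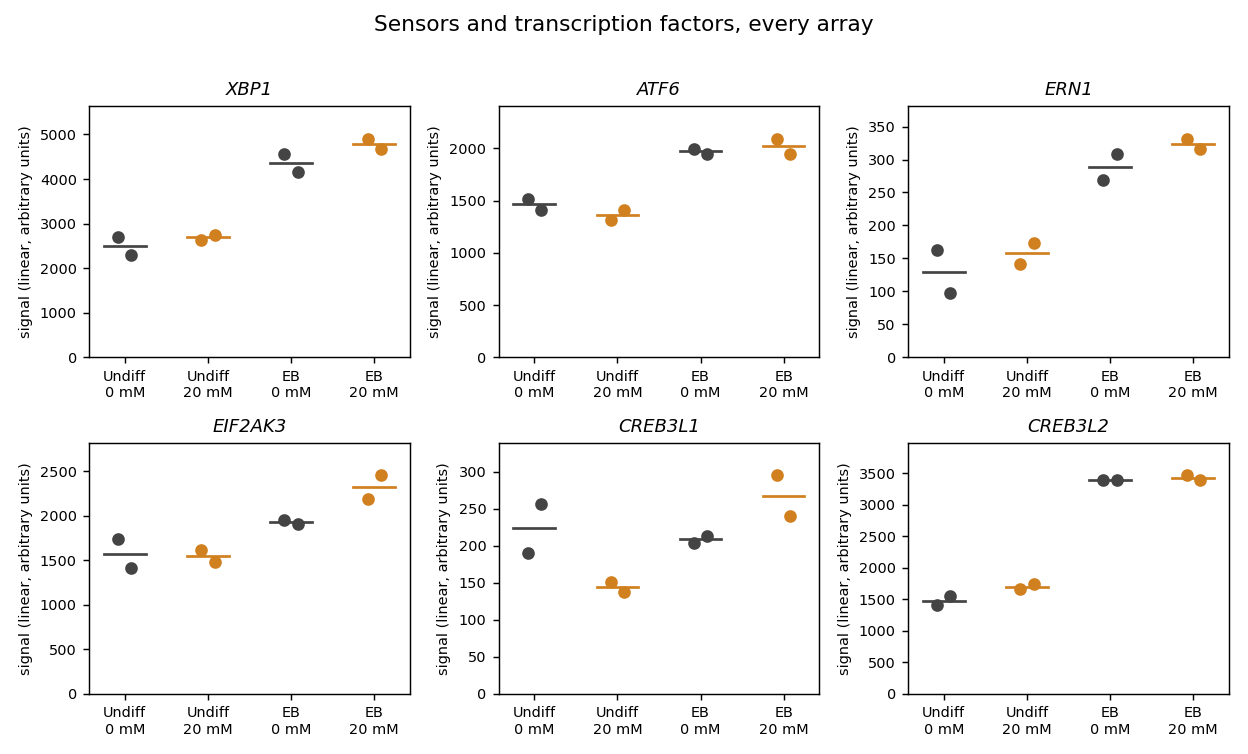
Linear signal (arbitrary units) of the 6 sensors and transcription factors on every array; points are arrays, lines group means, grey 0 mM and orange 20 mM ethanol. CREB3L2, XBP1, ATF6, ERN1 and EIF2AK3 show embryoid body arrays above undifferentiated arrays at both doses, and CREB3L1 shows the separation at 20 mM alone.

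Several stage calls depended on single arrays. At 0 mM, the call of PDIA3 was lost without any 1 of the 4 arrays compared (adjusted p = 0.0638 to 0.107). That of SDF2L1 was lost without undifferentiated array A at 0 mM or any embryoid body array (adjusted p = 0.0503 to 0.117), and that of ERO1A without the same undifferentiated array or either embryoid body array at 0 mM (adjusted p = 0.0965 to 0.133). SSR1 lost its call without either undifferentiated array at 0 mM or embryoid body array B at 0 mM (adjusted p = 0.0811 to 0.139), EDEM1 without any array but the undifferentiated pair at 0 mM (adjusted p = 0.0649 to 0.127), and ERN1 without embryoid body array B at 0 mM (adjusted p = 0.0527). At 20 mM, PDIA3 lost its call without any array but undifferentiated array A at 20 mM (adjusted p = 0.0667 to 0.171), SEC61B without either embryoid body array at 20 mM (adjusted p = 0.0504 and 0.0513), and EIF2AK3 without embryoid body array B at 20 mM (adjusted p = 0.0552). The calls of SDF2L1, ERO1A and ERN1 at 20 mM were lost in several omissions, among them that of embryoid body array B at 20 mM (adjusted p = 0.104, 0.171 and 0.0551). EIF2AK3 gained a call at 0 mM without undifferentiated array A at 0 mM (adjusted p = 0.0353). Of 37 further probe sets of the module that lay above the median on all 8 arrays, from 20 genes, 34 had the same sign of change at 0 mM as the probe set used and 3 the opposite, in ATF6, CREB3L2 and ERN1.

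Genes with and without the promoter elements overlapped in the size of their change. The 11 genes with ERSE or ERSE-II had a median change between stages of 0.55 at 0 mM, with 8 called higher and 0 lower. The other 19 measured genes with a window had a median of 0.70, with 15 higher and 2 lower. Of all tested genes, 28% were higher and 24.7% lower. Both groups include genes near 0, such as ERO1B with ERSE and CREB3L1 without.

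Beyond the module, 128 genes in 7 lists of the same pathway were examined, of which 122 were tested. At 0 mM 65 were called higher and 13 lower in embryoid bodies, with a median of 0.40, and at 20 mM 70 and 12, beside the 28% and 24.7% of all genes at 0 mM and the 29.2% and 27.1% at 20 mM. Of the further folding and lectin genes, 16 of 19 were higher and 0 lower at 0 mM (median 0.60). They include SIL1, an exchange factor of HSPA5 (2.32-fold, adjusted p = 0.000957), DNAJC1 (1.88-fold, adjusted p = 0.000664), MESD, a chaperone of lipoprotein receptors (1.72-fold, adjusted p = 0.000792), and SERPINH1, the collagen chaperone HSP47 (1.58-fold, adjusted p = 0.000936). Prolyl and further disulfide isomerases had 10 of 17 higher and 0 lower (median 0.51), led by FKBP7 (2.19-fold, adjusted p = 0.000303), TMX4 (2.24-fold, adjusted p = 0.000305), FKBP9 (1.995-fold, adjusted p = 0.000546) and PPIC (1.55-fold, adjusted p = 0.00156).

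The oligosaccharyltransferase, which attaches N-glycans to entering proteins, had 10 of 12 subunits higher and 2 lower (median 0.48). TUSC3 was 2.02-fold higher (adjusted p = 0.000247), DAD1 1.62-fold, the catalytic STT3A 1.60-fold and MAGT1 1.43-fold. Further degradation genes had 9 of 18 higher and 0 lower (median 0.37), with MARCHF6, a ubiquitin ligase of the ER, 2.34-fold (adjusted p = 0.000129), EDEM3 2.54-fold (adjusted p = 0.00038), MAN1B1 1.78-fold and FAF2 1.68-fold higher. Genes of targeting and translocation had 7 of 20 higher, 2 lower and 11 not called (median 0.12), with the share higher close to that of all genes. SRPRB, of the signal recognition particle receptor, was 1.88-fold higher (adjusted p = 0.0012), SEC62 1.66-fold (adjusted p = 0.000606) and TRAM1 1.38-fold (adjusted p = 0.00478), while SRP9, of the particle itself, was lower (-0.47, adjusted p = 0.00346). The COPII coat and cargo receptors had 8 of 20 higher and 2 lower (median 0.19), including KDELR3, which returns ER proteins (1.82-fold, adjusted p = 0.000759), SEC31A (1.60-fold), SURF4 (1.51-fold) and LMAN2 (1.58-fold). With median centring, the medians of targeting and translocation, of the COPII genes and of signalling turned negative at 0 mM (-0.17, -0.091 and -0.12), and the counts over the 7 lists became 37 higher and 28 lower. At 20 mM the counts became 32 higher and 34 lower with a median of -0.025, and further degradation genes also turned negative (-0.17). These counts are of 122 tested genes. Of all genes under that centring, 17.8% were called higher and 41.3% lower at 0 mM, with a median of -0.27. At 20 mM, 16.1% of all genes were called higher and 48.5% lower, with a median of -0.40.

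Further signalling genes and stress targets did not move one way: 5 of 16 were higher, 7 lower and 4 not called (median 0.17). The share higher was close to the 28% of all genes, and the share lower was above their 24.7%. MBTPS2, the protease that releases ATF6 from the membrane, was 1.76-fold higher (adjusted p = 0.000332). TRIB3 and CHAC1, targets of the factor ATF4, were lower (-1.05, adjusted p = 0.00106, and -0.80, adjusted p = 0.00308). DDIT3 (CHOP) was higher by 1.56 (adjusted p = 0.00263), from a dim mean of 61.3 in undifferentiated cells to 184.

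**Figure D4:**
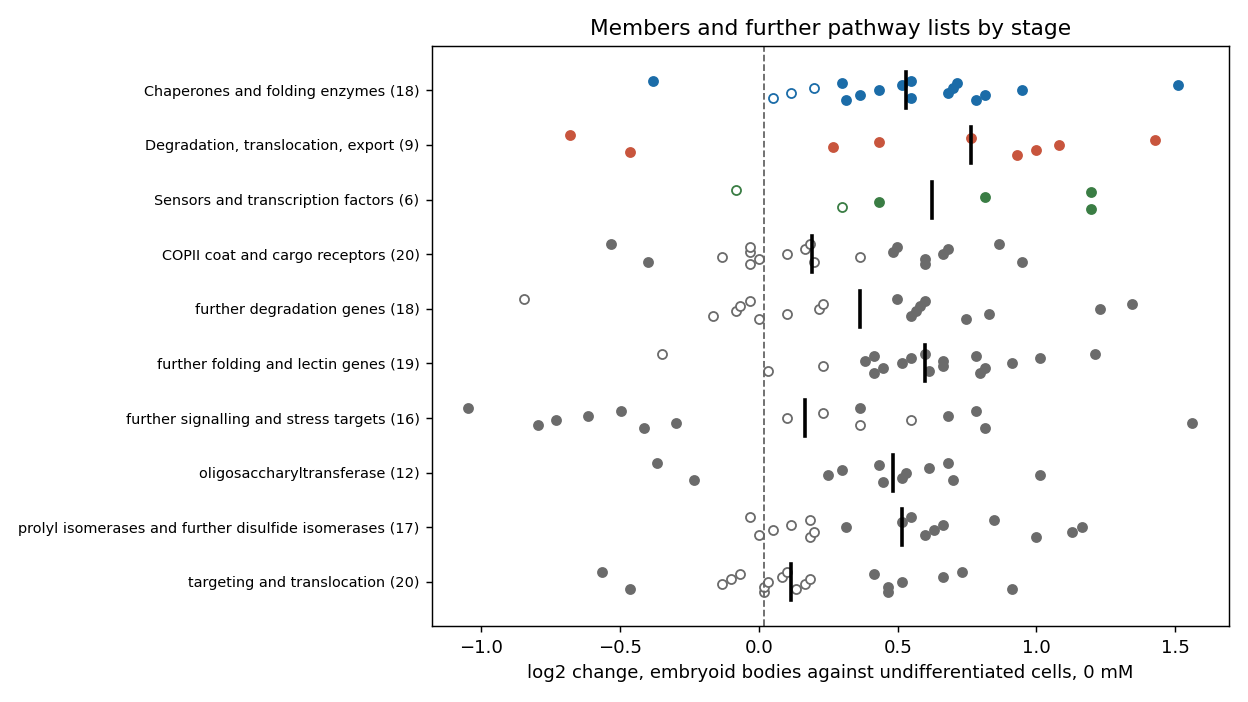
Change between embryoid bodies and undifferentiated cells at 0 mM for each tested gene of the 3 role groups and the 7 further pathway lists, in log2; filled points are called, black bars are list medians and the dashed line is the median of all tested genes. Medians run from 0.12 for targeting and translocation to 0.76 for the module's degradation, translocation and export genes.

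Ethanol left the module without a call in either stage. In embryoid bodies, 0 of 33 genes were called by limma at an adjusted p under 0.05, as against 0.0711% of all genes, and 2 were higher and 0 lower at an unadjusted p under 0.05, against 11.9% and 10.4% of all genes. The median change was 0.033 against 0.017 for all genes. The arrays of the 2 doses did not overlap for 13 genes with higher and 2 with lower signals at 20 mM, against 29.4% and 28.1% of all genes. In undifferentiated cells 0 of 33 were called, against 0.00711% of all genes, with 1 gene higher and 1 lower at an unadjusted p under 0.05 (4.61% and 2.39% of all genes), and a median of -0.017 against 0.017. The arrays did not overlap for 2 genes with higher and 3 with lower signals, against 15.4% and 12.1% of all genes. A missing call does not show equal levels. For HSPA5 the 95% interval of the ethanol change was -0.15 to 0.22 in embryoid bodies and -0.17 to 0.20 in undifferentiated cells.

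In embryoid bodies the largest change was that of SEC24D, by 0.55 ± 0.12 (95% interval 0.25 to 0.84), 1.46-fold, with unadjusted p = 0.00404 and adjusted p = 0.102. Both arrays at 20 mM (1122 and 1318) lay above both at 0 mM (813 and 851). It passed the threshold with a filter at the 75th percentile (adjusted p = 0.0411), as 5.28% of genes then did, and with a trended, robust variance (adjusted p = 0.0255), as 6.81% did. DNAJC3, an HSPA5 co-chaperone, was at 2630 on both arrays at 0 mM and 3090 on both at 20 mM, a change of 0.23 ± 0.084 (adjusted p = 0.192) that median centring turned to -0.033. EIF2AK3 differed by 0.27 ± 0.12 (adjusted p = 0.272). The 6 sensors all had positive values, as did 7070 of all 14072 genes. For 4 of the sensors the doses did not overlap, where 29.4% of all genes were higher without overlap. The median was 0.15 for the sensors, 0.017 for the chaperones and 0.05 for degradation, translocation and export. With median centring these medians turned to -0.12 for the sensors, -0.25 for the chaperones and -0.22 for degradation, translocation and export.

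The genes with the smallest p among the negative ethanol values in embryoid bodies were SDF2L1, PDIA3 and HYOU1. SDF2L1 was at 1349 and 1380 without and 1259 and 1230 with ethanol (-0.13, adjusted p = 0.398). PDIA3 was at 19953 and 19055 without and 19498 and 18621 with it (-0.033, adjusted p = 0.851), and HYOU1 at 3981 and 3631 against 3715 on both arrays (-0.033, adjusted p = 0.858). The dose pairs of PDIA3 and HYOU1 overlapped. Median centring made PDIA3 (-0.30), P4HB (-0.27) and SDF2L1 (-0.40) pass the threshold, against a median of -0.25 for all genes and 26.4% of them called lower under the same centring. Ethanol changes in embryoid bodies also ran with brightness, from a median of 0.33 in the dimmest of 10 equal groups of genes to -0.10 in the brightest, and in the 2 brightest groups, with 20 of the module's genes, the module's median was 0.025 against -0.10 for all genes there. Marker sums moved with ethanol in embryoid bodies too. They reached 53975 to 55698 for liver and yolk sac genes and 72497 to 73534 for mesenchyme and matrix genes. For pluripotency genes they were 79467 to 83356, and for neural genes 23857 to 25054. The neural sum rests mostly on TUBB3, whose mean fell from 15677 to 13504. The neural genes STMN2, DCX and MAP2 also fell, while PAX6 (1867 to 2163), SOX1, NCAM1, ELAVL3 and MAPT rose. Among the pluripotency genes ZFP42 rose (4315 to 4788), while the others fell. The part of these markers in the ethanol values was not tested.

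In undifferentiated cells the genes with the smallest p were CREB3L1 and CREB3L2. CREB3L1 was at 191 and 257 without and 151 and 138 with ethanol (-0.61 ± 0.17, unadjusted p = 0.0122, adjusted p = 0.559). CREB3L2 went from 1413 and 1549 to 1660 and 1738 (0.20 ± 0.076, adjusted p = 0.687), and neither pair overlapped. EDEM1 differed by 1.01 ± 0.45 (adjusted p = 0.726), which became a call without undifferentiated array A at 0 mM (1.78, adjusted p = 0.0184), with array B alone, at 123, then standing for that group and assumed to vary like the others. ERN1 differed by 0.32 ± 0.25 (adjusted p = 0.88), SEC61B by -0.10 (adjusted p = 0.834), and HSP90B1 by -0.12 (adjusted p = 0.869). The marker sums at 20 mM were 120307 to 126333 for pluripotency, 845 to 1261 for liver and yolk sac, 8881 to 10418 for mesenchyme and matrix and 18229 to 18906 for neural genes.

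**Figure D5:**
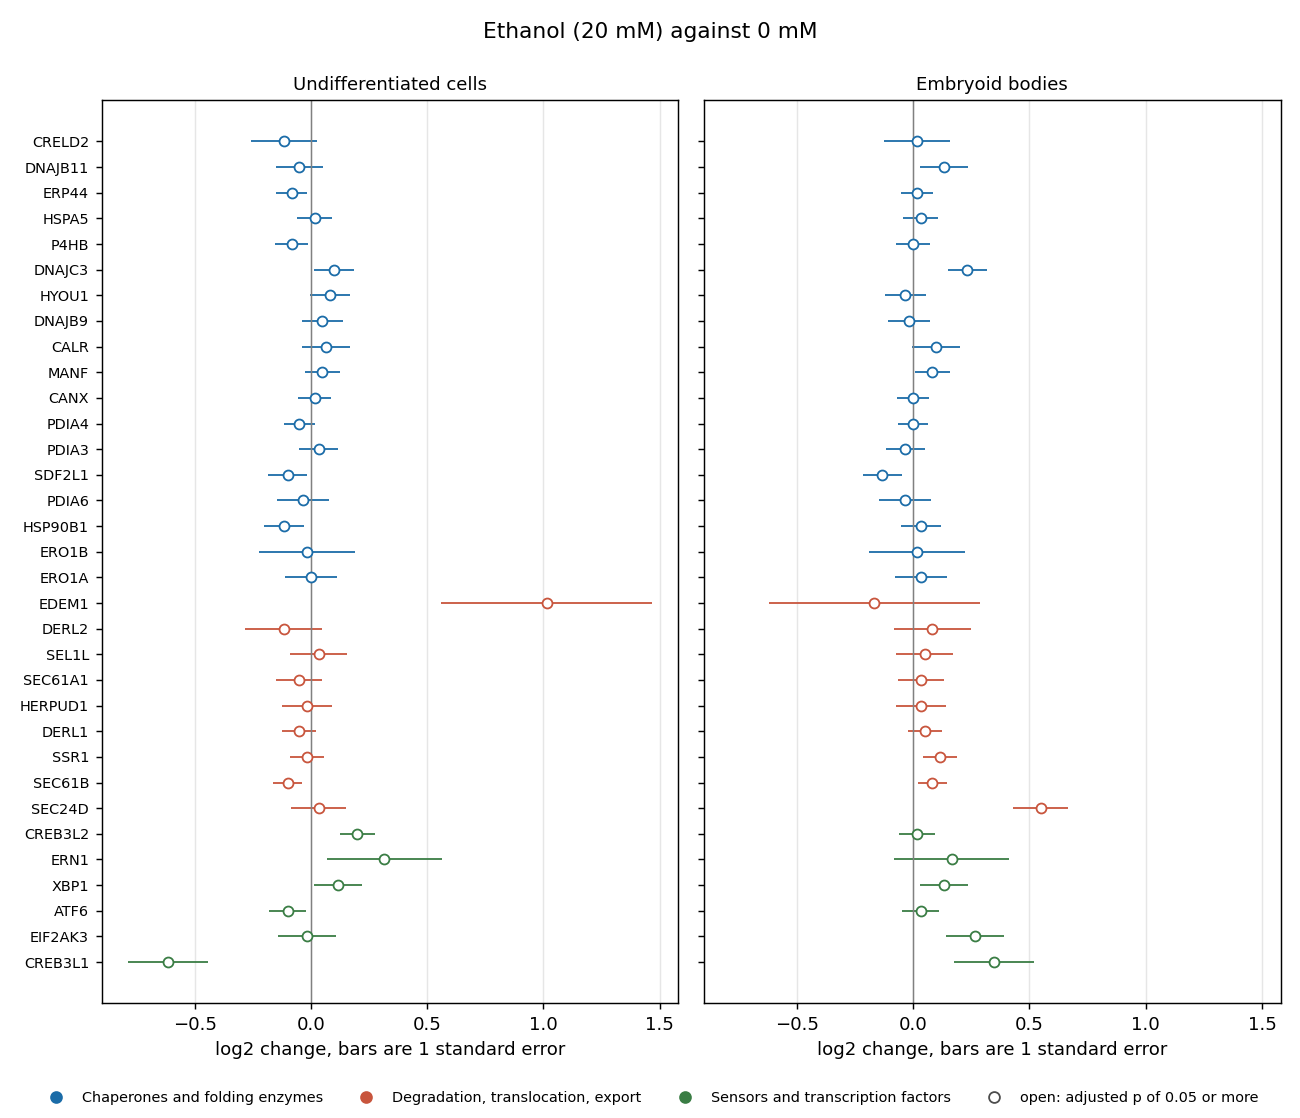
Ethanol change (20 mM against 0 mM) of the 33 genes in undifferentiated cells (left) and embryoid bodies (right), as log2 differences with bars of 1 standard error; all points are open because none passed an adjusted p of 0.05. Most points lie near 0. In the left panel EDEM1 stands apart above 0 and CREB3L1 below it, and in the right panel SEC24D stands apart above 0.

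The difference of the ethanol change between stages was tested directly. None of the 33 genes was called by limma, as 0% of all genes were, and 2 had a positive and 0 a negative difference at an unadjusted p under 0.05, against 6.86% and 6.13% of all genes. CREB3L1 differed by 0.96 ± 0.24 (unadjusted p = 0.00781, adjusted p = 0.294), with a change of -0.61 in undifferentiated cells and 0.35 in embryoid bodies. SEC24D differed by 0.51 ± 0.17 (unadjusted p = 0.0235, adjusted p = 0.337), with changes of 0.033 and 0.55. EDEM1 differed by -1.18 (adjusted p = 0.481), and by -1.94 without undifferentiated array A at 0 mM (adjusted p = 0.0486). The same tests ask whether the stage change depended on the dose, so the calls of SEC24D at 0 mM alone and of CREB3L1 at 20 mM alone do not show a dose dependence. In the further pathway lists, 0 of 122 genes were called with ethanol in either stage; at an unadjusted p under 0.05, 10 were higher and 7 lower in embryoid bodies, where 11.9% and 10.4% of all genes were, and 2 and 6 in undifferentiated cells, where 4.61% and 2.39% were.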

How the data were processed

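RNA of 8 samples was measured on expression arrays, and the deposited values are log10 signals by their range and by a shared trimmed mean (2% cut at each end), although the authors name RMA, per the submitters' processing notes, without a version. That form is the one of globally scaled MAS 5 signals. Values were multiplied by log2(10), with no further normalisation. Of 54675 probe sets, 41091 named 1 gene, 1801 several and 11783 none in the platform annotation. Genes were tested where at least 2 arrays lay above the array's median, which left 14072. Group means of the 4 groups were fitted to the 8 arrays with limma (version 3.58.1, under R 4.3.3), which gave 4 residual degrees of freedom beside 1.81 from the prior, and p-values were adjusted by Benjamini-Hochberg over the genes tested. The fit was tested on simulated data. Tables and figures used Python 3.11.15, pandas 2.3.3, numpy 2.4.6 and matplotlib 3.10.9.

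Named by rule are all 6 sensors, up to 4 genes of each other role group per direction with the smallest p between stages at 0 mM, 3 per direction for each ethanol comparison, and 4 per further list. The module and the lists were chosen with earlier results of these data known. The replicate letters are not stated to pair the samples. Deviations of same-letter arrays from their group means correlated by -0.024 to 0.037 over 12 pairs. Within a group the deviations of A and B mirror each other, so these pairs are not independent and cannot settle the pairing. Alternatives were filters, choices of probe set, scalings, variance models, a floor at a signal of 16, only the groups compared, a replicate block and leaving out each array. Genes that checked the cell line are not reported.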

Additional observations from a re-analysis of the deposited data

How the results depend on the processing

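The ethanol counts stayed at 0 except that in embryoid bodies 1 gene was called with the 75th percentile filter, 3 with median centring and 1 with a trended, robust variance, against 5.28%, 27.6% and 6.81% of all genes, and leaving out single arrays gave 0 to 1 in undifferentiated cells and 0 to 1 for the difference between stages. Median centring reduced the stage calls to 18 at 0 mM (15 higher) and 16 at 20 mM (13 higher). Genes called lower at 0 mM numbered 1 with the mean of all probe sets (2424 of all 12395 genes) and 0 with the probe set of highest SD (2446 of all 10271). With the highest SD only 24 of the 33 genes were tested, and SEC61B and SEC24D were not among them. At 20 mM they numbered 1 with no filter, with the mean of probe sets and with only the groups compared, and 0 to 2 with single arrays left out. They numbered 0 with the highest SD (24 genes tested), quantile normalisation and cyclic loess. Of all genes, 2652 of 10271, 4313 of 14071 and 3711 of 14025 were then lower, in the same order. With the replicate block, 24 genes were higher and 3 lower at 0 mM, 26 and 2 at 20 mM and 0 with ethanol. Of all 14072 genes, 3837 were then higher and 3373 lower at 0 mM, 4061 and 3724 at 20 mM and 0 with ethanol. The block changed no count of the module by over 1.5 times.

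Averaging a gene's probe sets, dim ones included, reversed the stage change at 0 mM of EIF2AK3 (-0.95), CREB3L1 (0.18), CREB3L2 (-0.022), SEC61B (0.058), SEC24D (1.33) and CANX (-0.33), that at 20 mM of SEC61B (0.66) and EIF2AK3 (-0.091), and the ethanol change of EIF2AK3 in embryoid bodies (-0.28) and of CREB3L1 (0.59) and HSP90B1 (0.075) in undifferentiated cells. With _x_at and _s_at probe sets left out, CREB3L2 was at -0.10 and -0.066 between stages at 0 and 20 mM and -0.017 with ethanol in undifferentiated cells. The probe set of highest SD gave -0.066 for DNAJC3 in embryoid bodies and 0.27 for HSP90B1 in undifferentiated cells. With ethanol in embryoid bodies, quantile normalisation and cyclic loess gave 0.11 and 0.11 for PDIA3 and 0.012 and 0.039 for HYOU1, and median centring -0.033 for DNAJC3. Leaving out single arrays, CREB3L1 between stages ran from -0.30 to 0.13, HYOU1 in embryoid bodies from -0.10 to 0.033 and ERN1 in undifferentiated cells from -0.050 to 0.68. Beyond those that follow from the choice of probe set or array, the cause was not tested. No detection calls were used, so signal over background is judged by the array median alone.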
